A study of Mus musculus with 40 samples.

Results

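A set of 10 genes of the growing neurite and its cytoskeleton were followed across age, antibiotics and morphine in the mouse brain: the tubulins Tubb2a, Tubb2b, Tubb3 and Tuba1a, the microtubule regulators Stmn1, Dcx and Dpysl3, and the membrane-linked proteins Marcks, Marcksl1 and Gap43. They were taken from the count table by symbol, through Ensembl identifiers read without their version, and are 10 of 56980 genes in the table. The genes were selected on their measured counts in these libraries, with the adult-to-adolescent differences in view, so differences between ages are described below without a test. All 10 were among the 17880 genes that passed the filter on low counts, and none had fewer than 290 reads in a library.

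Polyadenylated RNA was sequenced in 40 libraries from female wild type C57BL/6J mice, an inbred laboratory strain, with 5 libraries in each of 8 groups. Adolescents started on postnatal day 25 and adults on postnatal day 55. At each age the mice either stayed on plain water or took antibiotics by mouth, and either saline or morphine at 15 mg/kg was injected under the skin for 5 days. The 4 treatments at each age are therefore water with saline, antibiotics with saline, water with morphine and antibiotics with morphine, and mice of the control group also received injections. The medial prefrontal cortex appears in the series title, while the tissue label reads brain. The sources used here do not name the antibiotics. No label ties a library to a mouse of its own, so the p-values below describe the spread between libraries, which may be technical. In RNA from whole tissue, fewer cells of a type and less RNA per cell cannot be told apart.

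Microtubules are polymers of alpha and beta tubulin that fill the shaft of axons and dendrites, and neurons use several tubulin genes that change in balance as the brain matures. Stathmin (Stmn1) binds free tubulin and promotes disassembly, doublecortin (Dcx) stabilises microtubules in migrating young neurons, and Dpysl3 (CRMP4) is a collapsin response mediator that acts on the growth cone cytoskeleton. Marcks and Marcksl1 are myristoylated substrates of protein kinase C that tie membrane phospholipid to actin, and Gap43 is a growth cone phosphoprotein regarded as a marker of axon growth and regeneration.

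The beta tubulins are so alike that reads of one can align to another, which bears on every value of Tubb2a and Tubb2b. The final 60 coding bases, which encode the acidic tail where beta tubulins differ most, are shown from the transcripts of GENCODE M21, with capitals at each base that differs from Tubb2a.
Tubb2a: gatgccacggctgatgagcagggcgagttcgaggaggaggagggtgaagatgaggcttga
Tubb2b: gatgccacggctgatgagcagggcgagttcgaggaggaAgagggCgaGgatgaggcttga
Tubb3: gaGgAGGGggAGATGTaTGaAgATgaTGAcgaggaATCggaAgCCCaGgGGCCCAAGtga
Tubb2b differed from Tubb2a at 3 of these 60 bases and Tubb3 at 35. Over the coding sequence Tubb2a was 96.5% identical to Tubb2b and 83.5% to Tubb3, and Tuba1a was 98.3% identical to Tuba1b and 97.1% to Tuba1c. Of all stretches of 50 bases in the transcripts of Tubb2a, 49.6% also occurred in another gene. The shares were 36.9% for Tubb2b, 72.9% for Tuba1a, 18.9% for Stmn1 and 0% for Tubb3, Dpysl3 and Gap43. The count columns are named ReadsPerGene, the name of STAR's own gene counts, which leave out reads that align to several places. The sources used here do not state the setting itself. Reads from shared stretches may thus be missing, and Tubb2a, Tubb2b and Tuba1a are uncertain as single genes. Tubb3, Tuba1a, Stmn1 and Gap43 each overlap another annotated gene on the same strand.

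Promoter sequence was at hand for 5 of the 10 genes in the RefSeq promoter table (build GRCm38.p6), as windows from 250 bases before to 50 after the start of transcription. Those of Tubb2a (chr13:34077959-34078258, minus strand), Tubb3 (chr8:123411303-123411602, plus strand) and Marcksl1 (chr4:129513331-129513630, plus strand) are given here because the first 2 belong to genes that fell with treatment below and the last to the gene with the widest gap between ages. Capitals mark the letters of the TATA box (TATAAA), of the CAAT box (CCAAT) and of the GC box (GGGCGG) on either strand.
Tubb2a: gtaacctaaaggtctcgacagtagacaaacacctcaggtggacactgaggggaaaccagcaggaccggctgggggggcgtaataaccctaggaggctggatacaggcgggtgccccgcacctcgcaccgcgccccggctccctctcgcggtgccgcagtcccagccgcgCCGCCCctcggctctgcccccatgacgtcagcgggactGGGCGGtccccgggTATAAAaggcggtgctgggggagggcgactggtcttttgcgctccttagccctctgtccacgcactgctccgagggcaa
Tubb3: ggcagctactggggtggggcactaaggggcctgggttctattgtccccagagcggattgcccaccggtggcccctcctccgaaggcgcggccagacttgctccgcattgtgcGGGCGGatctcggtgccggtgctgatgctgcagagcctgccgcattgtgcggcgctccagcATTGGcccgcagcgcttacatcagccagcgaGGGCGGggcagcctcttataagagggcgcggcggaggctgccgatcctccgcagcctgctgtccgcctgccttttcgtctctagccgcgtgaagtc
Marcksl1: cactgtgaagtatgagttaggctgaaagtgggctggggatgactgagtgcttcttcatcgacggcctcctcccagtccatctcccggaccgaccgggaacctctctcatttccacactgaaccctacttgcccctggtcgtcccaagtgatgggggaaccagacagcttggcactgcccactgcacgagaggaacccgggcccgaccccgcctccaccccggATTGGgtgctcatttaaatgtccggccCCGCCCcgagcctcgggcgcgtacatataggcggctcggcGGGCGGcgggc
The Tubb2a window held TATAAA 29 bases before the start, a place where TATA boxes are found, and GGGCGG on both strands. The TATA box letters were in 13.6% of all 32851 promoter windows in that table, the CAAT box letters in 37.4% and the GC box letters in 35.7%. No matches of these motifs overlapped in the windows shown. Tubb3, Tuba1a and Marcksl1 held the CAAT and GC box letters and not those of the TATA box. Dcx, with 2 listed starts, held the TATA and CAAT box letters in both windows and not those of the GC box. Of the other letters searched on both strands, TGACG (20.8% of all windows) was in the Tubb2a window only, while the E-box CACGTG (7.15%) and the letters AACAAT (10.7%) were in none of the 5 genes' windows. These matches describe letters and not sites of binding.

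Levels are given as CPM, the reads of a gene per M of reads in its library, scaled for library composition by the trimmed mean method of edgeR (TMM). Sums over cell type markers are the exception and are plain CPM without this scaling. Depth ranged from 8.64 to 12.1 M counts per library (M for mega), and the biological coefficient of variation over all genes was 9.14%. Per kilobase of exon, the only scale on which genes are compared here, mean levels over all groups ran from 232 CPM per kb for Tubb2a, 202 for Tuba1a, 197 for Stmn1 and 169 for Tubb3, through 122 for Gap43, 69.6 for Marcksl1, 56.4 for Marcks and 25.6 for Tubb2b, to 8.04 for Dpysl3 and 3.07 for Dcx. Exon length was not corrected for stretches shared with other genes, so the places of Tubb2a, Tubb2b and Tuba1a in this order are uncertain.

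**Figure D1:**
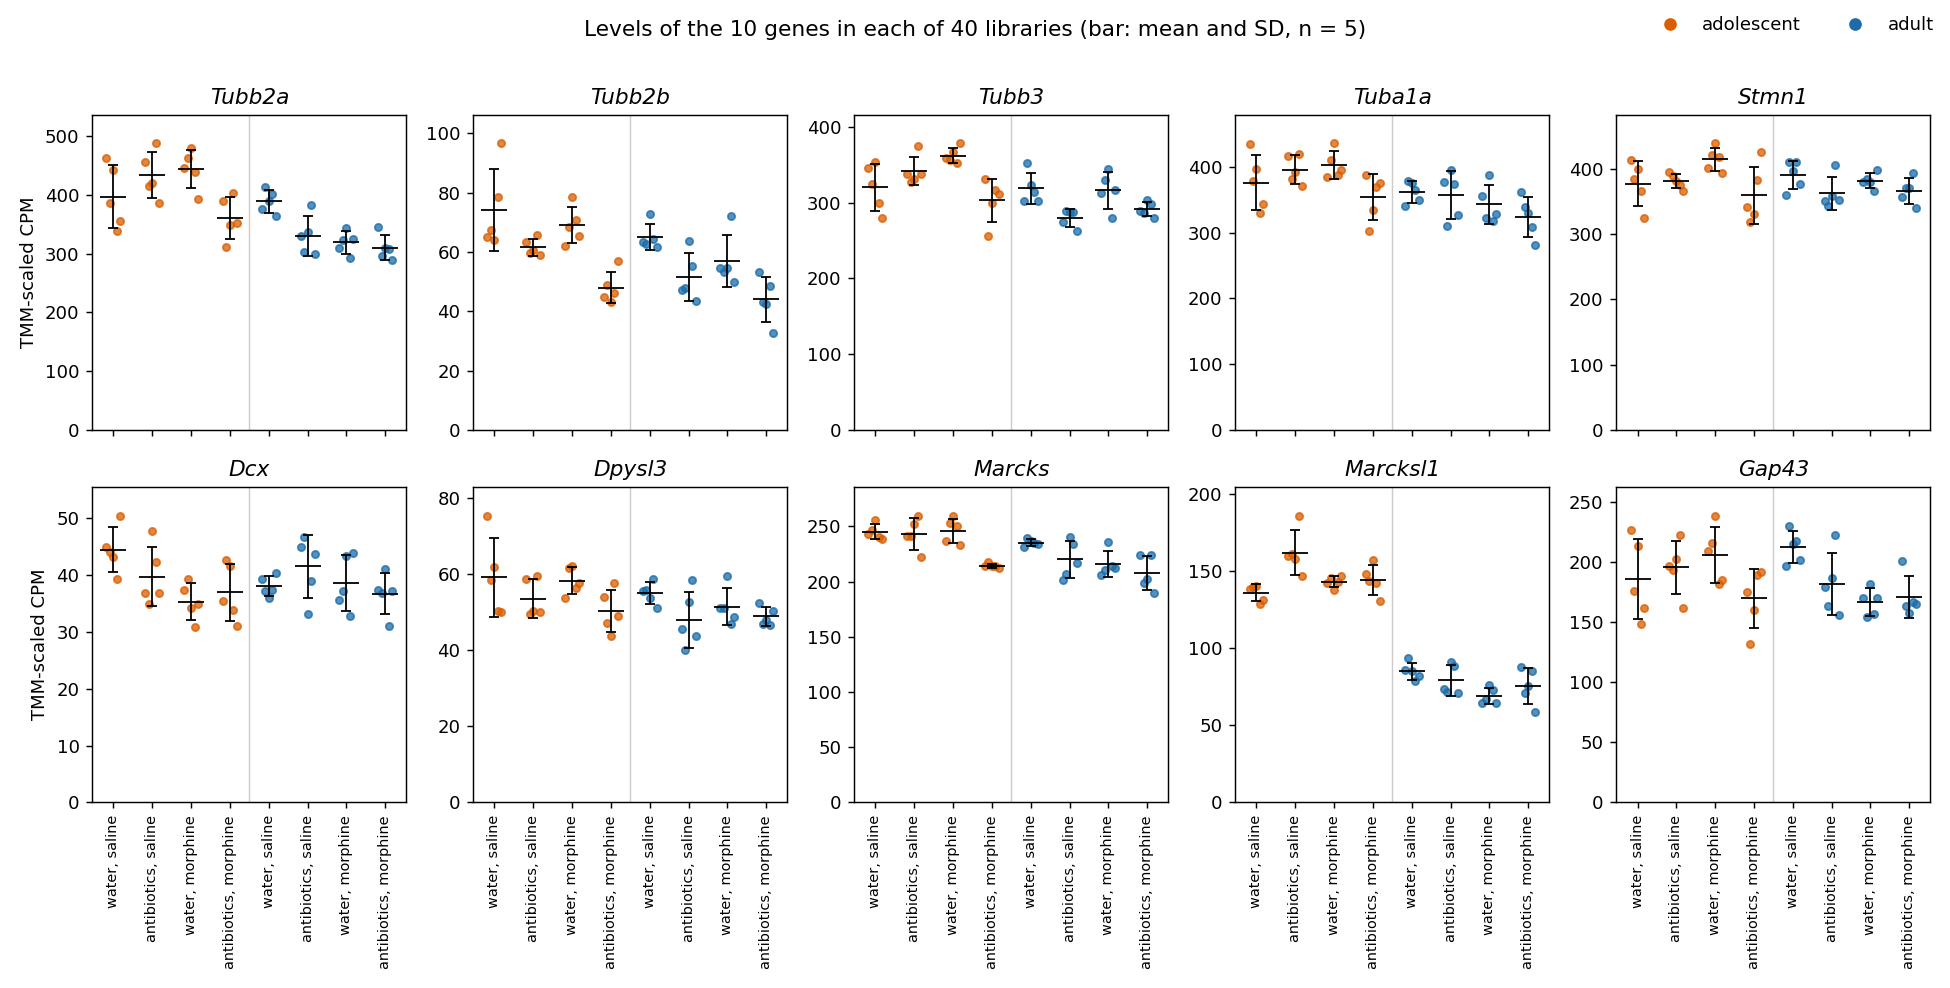
TMM-scaled CPM (linear axis from 0) of the 10 genes in 8 groups, with a point per library, orange for adolescents and blue for adults, and a bar at the mean with the SD of 5 libraries. Marcksl1 is the gene whose adult libraries (58.4 to 93.6 CPM) all lie under the adolescent ones (128 to 186 CPM).

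Treatments were compared within each age by edgeR's quasi-likelihood test with Benjamini-Hochberg adjustment over 17880 genes, with 0.05 as the limit of the adjusted p for calling a gene. In adolescents that also took morphine, antibiotics went with lower levels of 5 of the 10 genes: Tubb2a, Tubb2b, Tubb3, Stmn1 and Marcks. Of all genes tested, 7.56% were called in that comparison and 4.02% were called lower. In adolescents on antibiotics, morphine went with lower levels of 2 of the 10, Tubb2a and Marcks, where 2.92% of all genes were called and 1.34% called lower. Both comparisons use the same 5 adolescent antibiotics-morphine libraries and are not independent. The fall of Tubb2b in the first comparison was already known when the genes were chosen, so its place among the 5 is no independent result, and its values there are a description. The differences between ages that were in view at that choice use these same libraries. The other calls and the signs given below are therefore not independent of the choice either.

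The median log2 fold change of the 10 genes was -0.21 for antibiotics under morphine in adolescents, with 8 negative, against -0.01 over all genes tested. For morphine on antibiotics in adolescents it was -0.17, with all 10 negative, where 51.2% of all genes were negative. The adult medians were also negative. They were -0.15 for antibiotics in saline (9 of 10 negative, against 48.6% of all genes) and -0.11 for morphine on water (9 of 10, 46.7%). Morphine on antibiotics had -0.09 (7 of 10, 49.9%) and antibiotics under morphine -0.07 (8 of 10, 52.5%). Antibiotics in saline and morphine on water share the water-saline libraries of an age. Most of the genes varied together between libraries, so these counts are not 10 separate observations. In adolescents the remaining medians were 0.04 for antibiotics in saline and 0.09 for morphine on water, with 4 and 3 of 10 negative (51.3% and 49.5% of all genes). In these 6 comparisons edgeR called 0 of the 10 after the filter on low counts. For antibiotics in saline-injected adolescents (0.0391% of all genes called), the unadjusted p was under 0.05 for 2 of the 10, and DESeq2 called 0. For morphine on water in adolescents (0.319% called) these numbers were 4 and 0. In adults they were 5 and 0 for antibiotics in saline (0.0503% called), 0 and 0 for morphine on antibiotics (0.213% called), and 1 and 0 for antibiotics under morphine (0.028% called). For morphine on water in adults (0.475% called), the unadjusted p was under 0.05 for 4 of them, while DESeq2 called 3, Tubb2a, Marcksl1 and Gap43. With no filter on low counts edgeR did make calls in 5 of these 6: Marcksl1 (higher) for antibiotics in saline and Dcx (lower) for morphine on water in adolescents, and, all lower in adults, Tubb2a and Tubb2b for antibiotics in saline, Tubb2a and Marcksl1 for morphine on water, and Tubb2b for antibiotics under morphine. That an effect passed in one age and not in the other does not show that the ages differ.

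**Figure D2:**
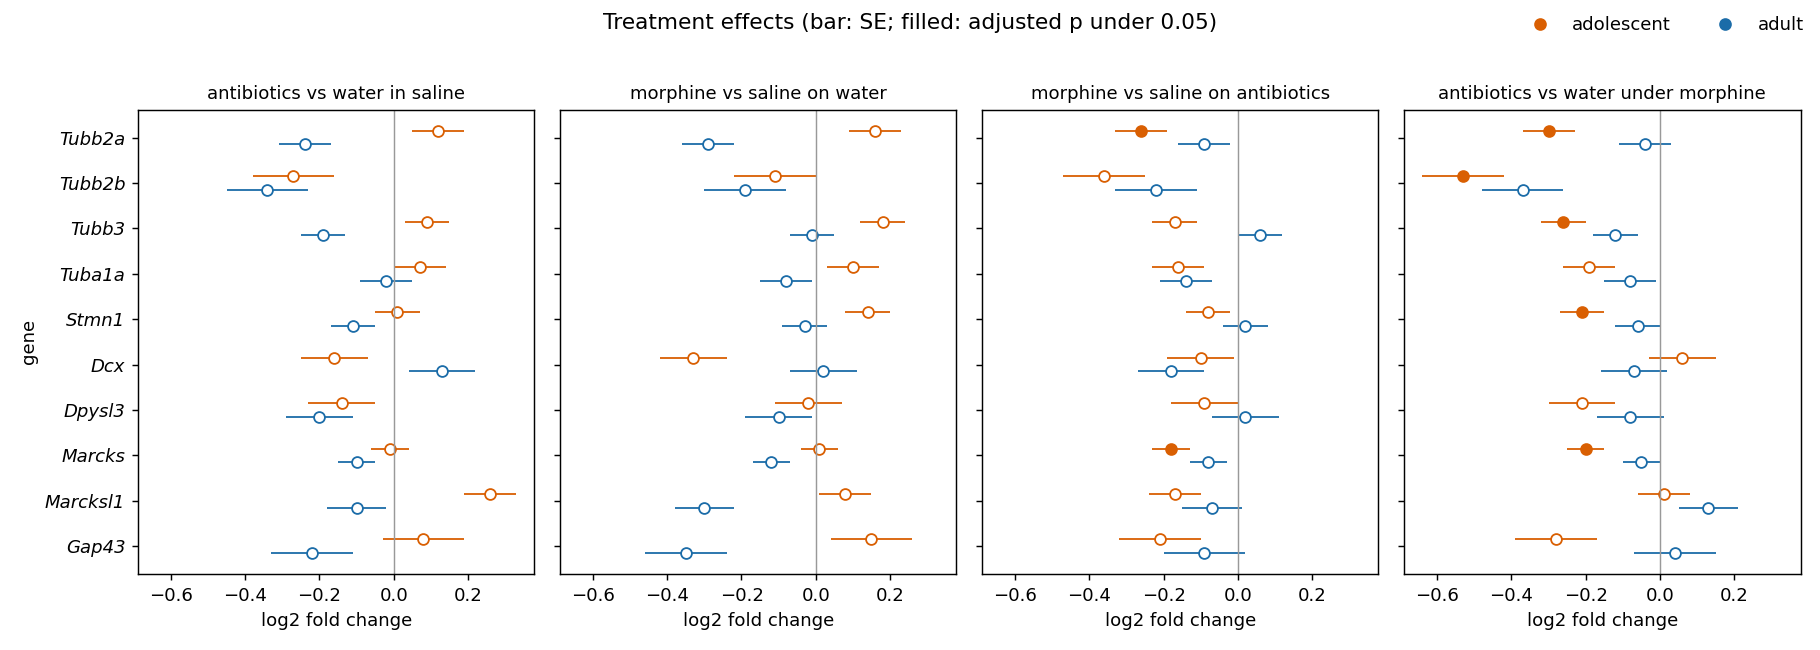
Log2 fold change of each gene in the 4 treatment comparisons, orange for adolescents and blue for adults, with bars for the SE and filled points where the adjusted p is under 0.05. The 7 filled points are all adolescent and negative, 2 for morphine on antibiotics and 5 for antibiotics under morphine.

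Tubb2b, a beta tubulin of developing cortex, had the largest change among the 10 genes in the tested comparisons. Adolescents on water and morphine had 62.2, 68.4, 78.4, 70.9 and 65.6 CPM in replicates 1 to 5, and those on antibiotics and morphine had 44.8, 48.8, 43.3, 46.1 and 56.8 CPM. Every library with antibiotics lay under every library on water. The log2 fold change was -0.53 ± 0.11 (SE, n = 5 each), or 0.694 of the level on water, and is given without a test because it was known beforehand. Against adolescents on antibiotics and saline (63.3, 59.5, 60.6, 65.7 and 58.9 CPM) the same antibiotics-morphine libraries were all lower. These are the libraries whose fall was known beforehand, so the p-values that follow are no independent support. The log2 fold change of -0.36 ± 0.11 (SE) did not pass (edgeR adjusted p = 0.0665). DESeq2 did call it (adjusted p = 0.0377), and over the 6 other settings the adjusted p ran from 0.00292 to 0.0698. Without replicate 5 of the antibiotics-morphine group, the highest of its 5 libraries, the edgeR adjusted p was 0.0243.

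In adults Tubb2b stood at 56.9 ± 8.67 CPM on water and morphine and 44 ± 7.69 CPM on antibiotics and morphine (SD, n = 5 each), and the libraries overlapped. The adult log2 fold change of -0.37 ± 0.11 (SE) for antibiotics under morphine did not pass (edgeR adjusted p = 0.282), though it was called with no filter on low counts (adjusted p = 0.0267, where 6 settings ran from 0.0267 to 0.463). In saline-injected animals antibiotics gave -0.27 ± 0.11 in adolescents and -0.34 ± 0.11 in adults (SE), with adjusted p of 0.392 and 0.262 by edgeR. The adult value too was called with no filter (edgeR adjusted p = 0.0313, where 6 settings ran from 0.0313 to 0.266). The estimate for Tubb2b was negative in all 8 comparisons of treatments and smallest, at -0.11 ± 0.11 (SE), for morphine on water in adolescents.

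Tubb2a, the gene with the highest level per kilobase of the 10, was lower with both antibiotics and morphine in adolescents than with either alone. The 5 libraries with both had 389, 312, 348, 403 and 353 CPM. Those with morphine on water had 445, 463, 479, 438 and 393 CPM, and those with antibiotics and saline had 456, 415, 420, 488 and 387 CPM. Ranges overlapped through the lowest library of each of the latter groups. The log2 fold change was -0.3 ± 0.07 (SE) against water with morphine (edgeR adjusted p = 0.00837) and -0.26 ± 0.07 (SE) against antibiotics with saline (edgeR adjusted p = 0.0386). Without replicate 2 of the antibiotics-morphine group, the lowest library, these became -0.24 (adjusted p = 0.0544) and -0.21 (adjusted p = 0.166) by edgeR. The second call was also lost without replicate 3 of that group and without antibiotics-saline replicate 1, 3 or 4.

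In adults on water, Tubb2a had 377, 413, 390, 401 and 364 CPM with saline and 310, 323, 344, 293 and 324 CPM with morphine. The groups did not overlap, and the log2 fold change was -0.29 ± 0.07 (SE; edgeR adjusted p = 0.0584), just short of a call. The outcome depended on the scaling and the tool, with an adjusted p of 0.0443 under size factors of the relative log expression type and 0.0154 in DESeq2, in a range of 0.000371 to 0.0592 over 6 settings. Adolescents on water had 397 ± 53.7 CPM with saline and 444 ± 32.7 CPM with morphine (SD, n = 5 each; log2 fold change 0.16 ± 0.07, SE; edgeR adjusted p = 0.338). In saline-injected adults, Tubb2a was called lower with antibiotics only in the fit with no filter on low counts (edgeR adjusted p = 0.0313, where 6 settings ran from 0.0313 to 0.231). Summing the reads of Tubb2a and Tubb2b left the 2 adolescent calls in place and gave an edgeR adjusted p of 0.0239 for morphine on water in adults.

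Tubb3, the beta tubulin III widely used as a neuronal marker, shared no stretch of 50 bases with another gene. With morphine, adolescents on water had 359, 357, 367, 352 and 378 CPM and those on antibiotics had 331, 256, 300, 316 and 311 CPM. The highest library with antibiotics was under the lowest on water. Against water with morphine Tubb3 fell by 16.5% (log2 fold change -0.26 ± 0.06, SE; edgeR adjusted p = 0.00514) and was called without each single library (adjusted p up to 0.0463). Adolescents on water and saline had 320 ± 30.9 CPM (SD, n = 5), and morphine on water gave 0.18 ± 0.06 (log2 fold change, SE; edgeR adjusted p = 0.206). Their range of 279 to 353 CPM overlapped both morphine groups, and antibiotics with morphine was not tested against them. In saline-injected adults Tubb3 had 302, 352, 323, 314 and 302 CPM on water and 275, 289, 287, 288 and 262 CPM on antibiotics. These groups did not overlap either, but the log2 fold change of -0.19 ± 0.06 (SE) did not pass (edgeR adjusted p = 0.256).

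Tuba1a, the alpha tubulin of young neurons, was called in none of the 8 comparisons by edgeR after the filter and in none by DESeq2, with 2 of its 8 unadjusted p-values under 0.05. Its adolescent levels were 403 ± 20.8 CPM on water and morphine and 354 ± 34.9 CPM on antibiotics and morphine (SD, n = 5 each; log2 fold change -0.19 ± 0.07, SE; edgeR adjusted p = 0.0913). With no filter on low counts this was a call (edgeR adjusted p = 0.0486, where 6 settings ran from 0.0486 to 0.11). Counted together with Tuba1b and Tuba1c, it had an adjusted p of 0.033 in that comparison.

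Among the microtubule regulators, Stmn1 fell and Dcx and Dpysl3 did not pass. With morphine, Stmn1 had 401, 421, 439, 417 and 394 CPM in adolescents on water and 341, 318, 331, 382 and 425 CPM in those on antibiotics. In the latter group 4 of 5 libraries were under all those on water, and replicate 5 lay among them. Stmn1 had a log2 fold change of -0.21 ± 0.06 (SE; edgeR adjusted p = 0.0311). This call was lost in 6 of 10 fits without a single library, those without replicate 1, 2 or 3 with antibiotics or replicate 2, 3 or 4 on water, with an adjusted p of up to 0.165. A fit of the 2 groups alone gave an adjusted p of 0.0511, where 6 settings ran from 0.0226 to 0.0511. Adolescents on water and saline had 377 ± 34.5 CPM of Stmn1 (SD, n = 5), and morphine on water gave 0.14 ± 0.06 (log2 fold change, SE; edgeR adjusted p = 0.332). Their range of 324 to 413 CPM overlapped both morphine groups, and antibiotics with morphine was not tested against them.

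Dcx moved apart from the other genes. Adolescents on water and saline had 44.9, 44, 43.2, 39.3 and 50.4 CPM and those on water and morphine had 37.3, 39.2, 34.3, 30.8 and 34.8 CPM, so that all morphine libraries were the lower ones. The log2 fold change of -0.33 ± 0.09 (SE) did not pass (edgeR adjusted p = 0.121), and its direction was opposite to that of 7 of the 10 genes in this comparison. It was called with no filter on low counts (edgeR adjusted p = 0.0253, where 6 settings ran from 0.0253 to 0.121). In adults on water the values were 38 ± 1.78 CPM with saline and 38.6 ± 4.87 CPM with morphine (SD, n = 5 each; log2 fold change 0.02 ± 0.09, SE; edgeR adjusted p = 0.962). At 290 to 488 reads per library, Dcx had among the fewest reads of the 10.

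Dpysl3 had 53.8, 61.6, 62.2, 56.3 and 57.6 CPM in adolescents on water and morphine and 54.1, 47.2, 43.7, 57.6 and 49.1 CPM in those on antibiotics and morphine, and the groups overlapped. Its log2 fold change was -0.21 ± 0.09 (SE; edgeR adjusted p = 0.134), as large as that of Stmn1 with a wider error. The 95% interval was -0.38 to -0.04, so a fall of the size seen for Stmn1 lies within it.

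Among the membrane-linked genes, Marcks fell in both adolescent comparisons. The 5 adolescent antibiotics-morphine libraries had 214, 218, 214, 214 and 212 CPM, the tightest of the 8 groups on the log scale. On water and morphine Marcks had 236, 253, 259, 251 and 233 CPM, and on antibiotics and saline 241, 241, 252, 260 and 222 CPM. Neither of these groups overlapped with the first. Against water with morphine Marcks fell by 13% (log2 fold change -0.2 ± 0.05, SE; edgeR adjusted p = 0.0131), a call that held without each single library (adjusted p up to 0.0491). Against antibiotics with saline it was -0.18 ± 0.05 (SE; edgeR adjusted p = 0.0455), and this call was lost in 8 of 10 fits without a single library, all but those without replicate 5 of either group, with an adjusted p of up to 0.137. It was also lost with no filter on low counts (adjusted p = 0.113, where 6 settings ran from 0.00932 to 0.113).

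Marcksl1, its smaller relative with 47% identity of coding sequence, parted from Marcks in the adolescent comparisons of antibiotics with water. For morphine on antibiotics in adolescents the 2 genes were alike, with Marcksl1 at -0.17 ± 0.07 (log2 fold change, SE; edgeR adjusted p = 0.223). Their Pearson r was 0.77 after group means were removed. In saline-injected adolescents Marcksl1 had 138, 140, 140, 128 and 131 CPM on water and 160, 161, 158, 186 and 147 CPM on antibiotics. All libraries with antibiotics were higher, yet the log2 fold change of 0.26 ± 0.07 (SE) did not pass (edgeR adjusted p = 0.192). The call depended on the filter: with none on low counts the edgeR adjusted p was 0.0363, where 6 settings ran from 0.0363 to 0.255. Under morphine the adolescent groups were close, at 143 ± 3.47 CPM on water and 144 ± 9.81 CPM on antibiotics (SD, n = 5 each; log2 fold change 0.01 ± 0.07, SE; edgeR adjusted p = 0.947). The 95% interval of that difference was -0.13 to 0.16.

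In adults on water, Marcksl1 had 85.6, 93.6, 84.9, 79 and 81.8 CPM with saline and 64.2, 67.3, 75.8, 73.1 and 64.5 CPM with morphine, without overlap. The log2 fold change was -0.3 ± 0.08 (SE; edgeR adjusted p = 0.0541). As for Tubb2a, the outcome depended on scaling and tool, with an adjusted p of 0.0429 under size factors of the relative log expression type and 0.0145 in DESeq2, in a range of 0.00234 to 0.0546 over 6 settings. Adolescents had a log2 fold change of 0.08 ± 0.07 (SE; edgeR adjusted p = 0.666) for the same treatment.

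Gap43 spread more between libraries of a group than Marcks did. In adults on water it had 197, 231, 216, 218 and 202 CPM with saline and 170, 154, 182, 157 and 170 CPM with morphine. Every morphine library was the lower, and the log2 fold change was -0.35 ± 0.11 (SE; edgeR adjusted p = 0.15). DESeq2 called it (adjusted p = 0.0388), and a fit of the 2 groups alone did so too (adjusted p = 0.00256). In adolescents on water the levels were 186 ± 33.5 CPM with saline and 206 ± 23.5 CPM with morphine (SD, n = 5 each; log2 fold change 0.15 ± 0.11, SE; edgeR adjusted p = 0.538).

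The differences between ages, which the choice of genes took into account, are described by levels and SE alone. Marcksl1 stood far from the rest. Its adult minus adolescent difference was -0.67 ± 0.08 under water with saline, -1.04 ± 0.08 under antibiotics with saline, -1.05 ± 0.08 under water with morphine and -0.93 ± 0.08 under antibiotics with morphine (log2, SE). The mean over treatments was -0.92 ± 0.04, or 0.527 of the adolescent level. All 20 adult libraries were below all 20 adolescent libraries, and the lowest adolescent group (136 ± 5.38 CPM on water and saline) and the highest adult group (85 ± 5.49 CPM on the same treatment; SD, n = 5 each) were the only neighbours in the order of group means whose libraries did not overlap.

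For the other 9 genes the mean difference between ages was between -0.28 and -0.01. Tubb2a was at -0.28 ± 0.04, Tubb2b at -0.21 ± 0.06, Tubb3 and Tuba1a at -0.14 each, Dpysl3 at -0.12 ± 0.04 and Marcks at -0.11 ± 0.03 (log2, SE). Gap43, Stmn1 and Dcx were at -0.05 ± 0.05, -0.03 ± 0.03 and -0.01 ± 0.05 (log2, SE). The marker of axon growth and the marker of migrating neurons thus had among the smallest mean differences between ages. For each of these 9 genes, all neighbours in the order of the 8 group means overlapped. Under the same treatment, however, adult and adolescent libraries of Tubb2a and Tubb3 did not overlap with antibiotics and saline or with water and morphine. Those of the remaining genes of the 9 overlapped in every treatment. The share of all genes whose libraries separated by age was not counted, so these separations are a description only.

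The size of the difference between ages varied with treatment. Tubb2a was at -0.03 ± 0.07 under water with saline, -0.39 ± 0.07 under antibiotics with saline, -0.48 ± 0.07 under water with morphine and -0.22 ± 0.07 under antibiotics with morphine (log2, SE). Tubb3 ran in the same order at -0.01, -0.29, -0.2 and -0.06, each with an SE of 0.06. Gap43 was at 0.2, -0.11, -0.31 and 0.01, each with an SE of 0.11, so adults were the higher group on water and saline and the lower one on water and morphine. In adults minus adolescents, the morphine effect on water differed by -0.45 ± 0.11 for Tubb2a, -0.5 ± 0.15 for Gap43, -0.38 ± 0.11 for Marcksl1 and 0.35 ± 0.13 for Dcx (log2, SE). These are the same libraries arranged another way and are given without a test.

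**Figure D3:**
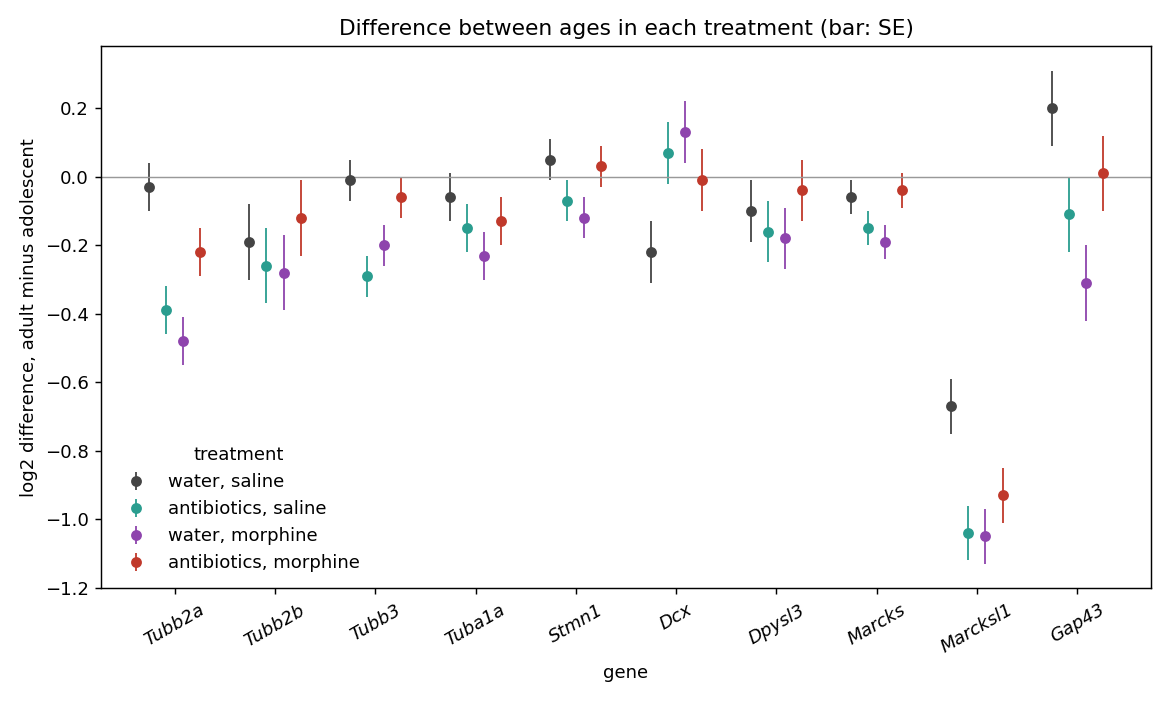
Adult minus adolescent log2 difference of each gene in 4 treatments, with bars for the SE. Marcksl1 lies between -1.05 and -0.67 in all 4, while Gap43 lies on both sides of 0, from -0.31 to 0.2.

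Beside the 10 genes, lists of the same pathways were counted, none of them with a set test, to be read against the 4.02% of all genes called lower and 7.56% called either way in this comparison. For antibiotics under morphine in adolescents, 4 of 12 other tubulins were called lower: Tuba1b (-0.24 ± 0.05), Tubb4b (-0.29 ± 0.07), Tubb5 (-0.22 ± 0.06) and Tuba4a (-0.2 ± 0.06; log2 fold change, SE), with edgeR adjusted p between 0.00426 and 0.0321. The median of that list was -0.13. Among relatives of Stmn1, Dcx and Dpysl3, 1 of 10 was lower, Stmn2 (-0.22 ± 0.07), and 1 was higher, Dpysl4 (0.34 ± 0.09). Of 20 growth cone actin regulators 5 were lower, among them the actin-monomer binding protein genes Cap1 (-0.25 ± 0.06) and Pfn1 (-0.23 ± 0.07) and the actin gene Actg1 (-0.17 ± 0.05). Of 22 guidance and adhesion genes 3 were lower: the semaphorin coreceptor gene Nrp1 (-0.53 ± 0.12), the secreted guidance cue gene Slit2 (-0.36 ± 0.11) and the ephrin receptor gene Epha5 (-0.25 ± 0.08). The numbers were 1 of 18 neurofilament and microtubule-associated protein genes (Tppp, -0.26 ± 0.06), 1 of 19 tubulin folding genes (Cct4, -0.24 ± 0.06) and 1 of 16 synapse genes (Homer1, -0.43 ± 0.11), all lower and near the share over all genes. Of 20 markers of immature and migrating neurons, 16 could be tested. Here edgeR and DESeq2 called 0 of them, edgeR with no filter on low counts called 1, 4 had an unadjusted p under 0.05, and the median was 0.00.

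For morphine on antibiotics in adolescents, 1.34% of all genes were called lower and 2.92% either way. Called lower were 2 of 20 actin regulators (Cap1 and Cap2) and 2 of 22 guidance genes (Nrn1, -0.38 ± 0.07, and Slit2, -0.39 ± 0.11). So were the tubulin tyrosine ligase gene Ttl (-0.26 ± 0.07), 1 of 19 folding genes, and Sox4 (-0.38 ± 0.08), 1 of 16 immature neuron markers. Dpysl4, 1 of 10 relatives, was called higher (0.33 ± 0.09; log2 fold change, SE). No gene of the other tubulin, neurofilament and microtubule-associated protein, or synapse lists was called by edgeR or DESeq2. In the mean difference between ages, where 17.9% of all genes were called in either direction, 7 of 10 relatives were called lower in adults, among them Dpysl4 (-0.27 ± 0.04) and Dpysl5 (-0.28 ± 0.08). Of 18 neurofilament and microtubule-associated protein genes 5 were higher in adults, among them Map1b (0.26 ± 0.07), and 1 was lower. Of 20 growth cone actin regulators 8 were lower, among them Cfl1 (-0.19 ± 0.03), and 2 were higher. For 16 synapse genes these numbers were 3 lower and 5 higher, and for 22 guidance and adhesion genes 1 lower and 4 higher. Of 19 tubulin folding genes 3 were lower and 0 higher, and of 12 other tubulins 1 was lower and 0 higher. Of the 16 tested markers of immature and migrating neurons, 6 had a negative difference, at a median of 0.05, and 2 were called, both lower in adults. These were Cd24a (-0.91 ± 0.13), a surface protein of young neurons that other cells also carry, and Sox4 (-0.25 ± 0.04; log2, SE).

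Over the 40 libraries most of the 10 genes varied together. The highest Pearson r of log2 CPM was that of Tubb2a with Tuba1a, at 0.86, and Tubb2a with Gap43 had 0.78. After group means were removed, Tubb2a with Gap43 had 0.9 and Tubb2a with Dpysl3 had 0.83, so much of this variation lay between libraries of a group. Tubb2b was an exception, with an r of 0.55 with Tubb2a over all libraries and 0.00 within groups, and Dcx had an r of at most 0.06 with any of the others. Of genes outside the set with at least 10 CPM, those most like the mean of the 10 included Ldha (r = 0.9), Sqle (0.86), Slc25a22 (0.85), Ctnnb1 (0.85), Shisa4 (0.85) and Actg1 (0.85). These coefficients are over 40 libraries that share groups, scaling and depth, and are descriptions.

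**Figure D4:**
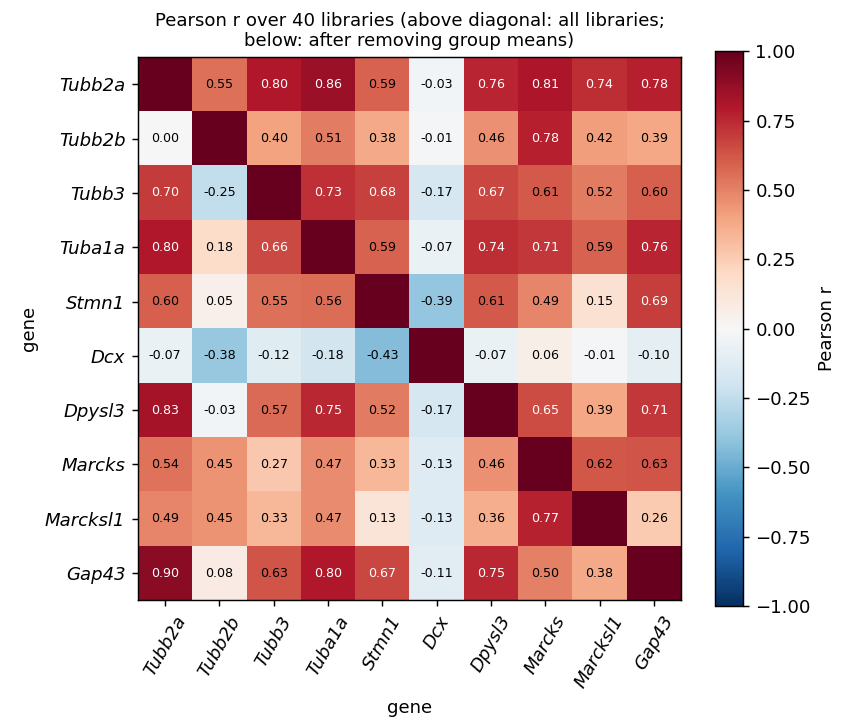
Pearson r of log2 CPM between each pair of genes over 40 libraries, above the diagonal over all libraries and below it after group means were removed, from -1 (blue) to 1 (red). The row of Dcx stays at or under 0.06, and Tubb2a with Gap43 reaches 0.9 within groups.

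Markers of several cell types moved beside these results, and their part in them was not tested. In the mean difference between ages, 7 of 10 mature oligodendrocyte markers were lower in adults at a list median of -0.34. The summed level of 9 premyelinating oligodendrocyte markers was 236 to 282 CPM in adolescents and 203 to 255 CPM in adults, with Enpp6 at -0.73 ± 0.12 and Bcas1 at -0.37 ± 0.07, and the precursor gene Gpr17 at -0.58 ± 0.06 (log2, SE). For antibiotics under morphine in adolescents, 1 of 10 excitatory neuron markers, Neurod6 (-0.55 ± 0.13), was called lower. So were 2 of 10 astrocyte genes, Aqp4 (-0.42 ± 0.12) and S100b (-0.27 ± 0.08). In each list 7 of 10 were negative, at medians of -0.1 and -0.08. The astrocyte sums overlapped, at 4330 to 4940 CPM on water and 3890 to 4960 CPM on antibiotics. Of 10 microglia markers C1qa (-0.41 ± 0.12) was lower. Of 9 premyelinating oligodendrocyte markers Tcf7l2 (-0.62 ± 0.18) was lower and Mycl (0.48 ± 0.12) higher. The striatal neuron genes Ppp1r1b (0.49 ± 0.09) and Pde10a (0.3 ± 0.07) were called higher. Of 9 striatal genes tested 5 were negative, at a median of -0.04. The summed level of 10 excitatory neuron markers was 2670 to 2820 CPM in adolescents on water and morphine and 2580 to 2880 CPM in those on antibiotics and morphine, while that of 10 striatal markers was 204 to 209 and 227 to 245 CPM. Ppp1r1b went from 48 ± 5.05 to 67.6 ± 3.28 CPM and Pde10a from 63.1 ± 5.14 to 77.4 ± 4.38 CPM (SD, n = 5 each). Together this is about as much as the gap between the sums, though these means are TMM-scaled and the sums are plain CPM. The estimates of 10 mature oligodendrocyte markers were mostly positive in 3 comparisons named above for Tubb2a. Their median log2 fold change was 0.28 for antibiotics under morphine and 0.27 for morphine on antibiotics in adolescents, each with 1 of 10 negative, and 0.42 with 0 of 10 negative for morphine on water in adults. In these 3 comparisons edgeR and DESeq2 called 0 of the 10, with 1, 2 and 9 unadjusted p-values under 0.05. Their summed level in adolescents was 1240 to 1490 CPM on water and morphine, 1140 to 1650 on antibiotics and saline, and 1350 to 2030 on antibiotics and morphine, and in adults on water 972 to 1070 CPM with saline and 1040 to 1540 with morphine. The 10 markers of mural and leptomeningeal cells had medians of -0.24 (8 of 10 negative), -0.32 (10 of 10) and -0.15 (7 of 10) in the same 3 comparisons. Of them edgeR called 0 in each, with 0, 2 and 1 unadjusted p-values under 0.05, and DESeq2 called 0, 1 and 0. Their sums overlapped, at 247 to 374, 258 to 377 and 231 to 272 CPM in those adolescent groups and 276 to 335 and 225 to 309 CPM in those adult groups. Of the excitatory, inhibitory and striatal lists, only Six3 was at 0 in every library of a group, in adolescents on antibiotics and saline. Mitochondrial reads made up 3.99% and 3.9% of the counts in the adolescent morphine groups, on water and on antibiotics.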

How the data were processed

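Polyadenylated RNA of 40 libraries was measured, 5 in each of 8 groups that were taken from the sample titles. Raw read counts per gene were deposited by the authors in a single table, made with STAR 2.7.10a and the mouse build mm10 per the submitters' processing notes, which also name DESeq2 without a role. The sources used here do not give the annotation or the strand setting of the counts, so reads of overlapping genes cannot be told apart. Identifiers were matched without version to GENCODE M21 (52073 of 56980, 91.4%).

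Counts were fitted with R 4.3.3 and edgeR 4.0.16: filterByExpr by group (17880 genes, 99.75% to 99.82% of the counts), TMM scaling, and a robust quasi-likelihood fit of group means to all libraries. P-values are two-sided and adjusted by the Benjamini-Hochberg method across the tested genes. The SE of a log2 fold change is its absolute value over the root of the F statistic. The fitting script was tested on simulated data. Within-group pairs of libraries had a chi-square per gene of 2.2 to 16.2, so none was treated as a duplicate. At this depth 3 counts equal 0.248 to 0.347 CPM, for counting error only.

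The genes, the lists and the comparisons were chosen with earlier results of these data known. The text names the 10 genes in the comparisons, up to 4 called genes of a list by smallest p, and the 8 genes most like the mean of the standardised log2 CPM of the 10, of which 2 are not reported here. Alternatives were size factors of the relative log expression (RLE) type, no filter on low counts, at least 1 CPM in 5 libraries, DESeq2 1.42.0, fits restricted to the groups of a comparison, a block for replicate number, paralogs summed, and fits without each library.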

Additional observations from a re-analysis of the deposited data

Results flagged for a closer look

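Of 80 sets of 5 libraries (10 genes in 8 groups), 6 held a library far from the other 4, where chance gives about 1 in 20. All 6 were high. They were Tubb2b in adult water-saline replicate 3 (72.7 CPM, nearest 64.3) and adult water-morphine replicate 4 (72.1 CPM, nearest 54.6), and Tubb3 in adolescent antibiotics-saline replicate 4 (374 CPM, nearest 338). The others were Stmn1 in adult antibiotics-saline replicate 4 (406 CPM, nearest 359), Marcks in adult water-morphine replicate 3 (236 CPM, nearest 214) and Gap43 in adult antibiotics-morphine replicate 1 (201 CPM, nearest 167).

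In 2 cases all 5 treated libraries of one age lay above the mean of their controls and all 5 of the other age lay below it. Estimates of opposite sign without such a separation of libraries were more frequent, as for Tubb2a and Gap43 under morphine on water. For antibiotics in saline, Tubb3 had a log2 fold change of 0.09 ± 0.06 in adolescents and -0.19 ± 0.06 in adults (SE). For morphine on water, Marcksl1 had 0.08 ± 0.07 in adolescents and -0.3 ± 0.08 in adults (SE). Neither difference between the ages was tested.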

How the results depend on the processing

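Of 1296 recomputed treatment fold changes of the 10 genes, 30 changed sign, all between values called neither before nor after and of at most 0.07 in size. The only one outside the fits without a library was Marcks for morphine on water in adolescents, at -0.0014 in a fit of only the groups compared. Without single libraries the log2 ranges with a change of sign were, for adolescents, -0.04 to 0.05 (Stmn1) and -0.03 to 0.02 (Marcks) for antibiotics in saline, -0.08 to 0.07 (Dpysl3) and -0.02 to 0.02 (Marcks) for morphine on water, and -0.01 to 0.05 (Marcksl1) for antibiotics under morphine. For adults they were -0.07 to 0.02 (Tuba1a) for antibiotics in saline, -0.05 to 0.01 (Tubb3) and -0.04 to 0.05 (Dcx) for morphine on water, -0.01 to 0.06 (Stmn1), -0.03 to 0.1 (Dpysl3) and -0.13 to 0.01 (Marcksl1) for morphine on antibiotics, and -0.02 to 0.07 (Gap43) for antibiotics under morphine. Of the calls on single genes, 20 were lost and 7 gained without a library, and 2 were lost and 23 gained under other settings; the cause was not tested. Counts of all called genes moved by over 1.5 times as follows. For adolescents, antibiotics in saline gave 7, and 70 with no filter, 4 in a fit of only the groups compared and 42 in DESeq2; morphine on water gave 57, and 137, 20 and 102. For adults, antibiotics in saline gave 9, and 78, 15 and 51; morphine on water gave 85, and 213, 148 and 153; antibiotics under morphine gave 5, and 44, 3 and 15; morphine on antibiotics gave 38, and 61 with no filter. Between ages, water with saline gave 46, and 139, 19 and 104; water with morphine gave 166, and 310 with no filter and 377 in DESeq2; antibiotics with morphine gave 186, and 321 and 436. Without 1 library the 4 adolescent counts ran from 0 to 13, 33 to 63, 214 to 970 (of 522 for morphine on antibiotics) and 634 to 2263 (of 1351 for antibiotics under morphine), and the 4 adult counts from 2 to 46 (antibiotics in saline), 30 to 153 (morphine on water), 15 to 32 (morphine on antibiotics) and 0 to 3 (antibiotics under morphine). In the 2 largest, the lowest counts came without adolescent antibiotics-morphine replicate 2 and the highest without its replicate 5. The counts between ages ran from 22 to 95 (water, saline), 560 to 1115 (of 1068; antibiotics, saline), 63 to 328 (water, morphine) and 61 to 536 (antibiotics, morphine). The replicate numbers were not treated as pairs. Same-numbered libraries correlated at -0.12 to 0.18 in their deviations, and no comparison had more than 2 of 5 pairs over 0.1. Weak correlations cannot exclude a pairing. For morphine on antibiotics in adolescents, 3 of 5 libraries correlated best with the library of their own number, against 0 to 2 in the other comparisons. A replicate block gave 16 calls for antibiotics in saline in adolescents, 22 in adults, and 8 for antibiotics under morphine in adults, and with the block morphine on water in adults called Tubb2a (edgeR adjusted p = 0.029) and Marcksl1 (0.026). The lowest read numbers in a library among the 10 genes were those of Dcx and Tubb2b, at 290 reads each.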
